A study of Drosophila melanogaster with 10 samples.

Results

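The apoptosis genes described here are rpr, grim, skl, th (Diap1), Nc (Dronc), Ark (Dark), Dcp-1, Ice (Drice), Buffy and debcl. They were chosen by name, and every transcript entry under these symbols was kept, which gave 10 of the 15240 genes and 16 of the 30551 entries in the table of expression values. The study examined how polymerization of the Polycomb group protein Polyhomeotic (Ph) organizes chromatin in Drosophila S2 cells, a line derived from embryos. Its 10 samples form 5 groups of 2 replicates, namely pull-downs of tagged Ph-WT or of the polymerization mutant Ph-ML, the inputs of each, and RNA of S2 cells of WT genotype that carry neither transgene. Values were used for the 2 RNA libraries, and 8 samples were not analysed here. Per the labels the cells grew in ESF-921 medium at 27 °C and were kept with copper sulphate (0.5 mM, 3 days), the condition that switches on the transgenes in the other lines. With 1 group there was no condition to compare, so levels are described with their spread over the 2 libraries, and no p-value for a difference between genes is given.

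In flies, cell death is decided largely at the inhibitor Diap1, a ubiquitin ligase that binds caspases and holds them inactive. The products of rpr, grim, skl and hid (listed as W in the table) bind Diap1 through a short motif at their amino terminus and free the caspases. The initiator caspase Dronc is then activated on a scaffold built from Dark, and it cleaves the effector caspases Drice and Dcp-1. Loss of Diap1 alone is known to kill S2 cells, and the inducer genes are known to respond to developmental signals, ecdysone and DNA damage.

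Expression was deposited as RPKM, reads normalized to transcript length and to library size. Each gene was given the median of its transcript values, and the SD shows how far apart the 2 libraries were. Whole reads were recovered from the steps in the values, and gave 37054213 reads in replicate 1 against 9495835 in replicate 2, so replicate 1 was 3.90-fold deeper. A read number given below is the least that fits the values, because any divisor that it shared with the transcript length is lost. Intervals of counting error built on these numbers are therefore the widest that fit. Of 8 plasmatocyte (blood cell) markers, 7 had values and 5 reached 1 RPKM, with summed levels of 125.3 and 117.5 RPKM. Most of these sums came from Pvr, at 72.6 and 69.5 RPKM, and crq, at 32.1 and 29.0 RPKM. NimC1 was not analysed here. The defining marker Hml was at 1.21 and 1.14 RPKM, Pxn was at 0.529 and 0.267 RPKM, and He was near 0, at 0.0401 and 0 RPKM. Of 5 markers of other cells, 1 reached 1 RPKM, the neuronal gene elav at 2.31 and 3.34 RPKM, and the summed levels of the list were 2.75 and 3.55 RPKM. In bulk RNA, expression in fewer cells and less RNA per cell cannot be told apart.

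The apoptosis genes were mostly expressed, but a single gene in each of the inducer and inhibitor roles reached 1 RPKM. th was the highest of the 10, rpr was the only inducer above 1 RPKM, and all 3 caspases were expressed, with means from 5.01 to 14.3 RPKM. Of the 10 genes, 7 (70%) had a mean of 1 RPKM or more, against 49.5% of all genes, and 6 (60%) had a mean of 5 RPKM or more, against 29.5% of all genes. Only 4 reached 5 RPKM in both libraries, since Ark had 4.80 RPKM in replicate 2 and Dcp-1 had 4.87 RPKM in replicate 1. The share of all genes given here is for the mean alone. The medians over the 10 genes in replicates 1 and 2 were 5.57 and 4.98 RPKM, where all genes had medians of 0.973 and 0.839 RPKM. The 3 genes under 1 RPKM were 2 inducers, grim and skl, and the Bcl-2 family gene Buffy.

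**Figure D1:**
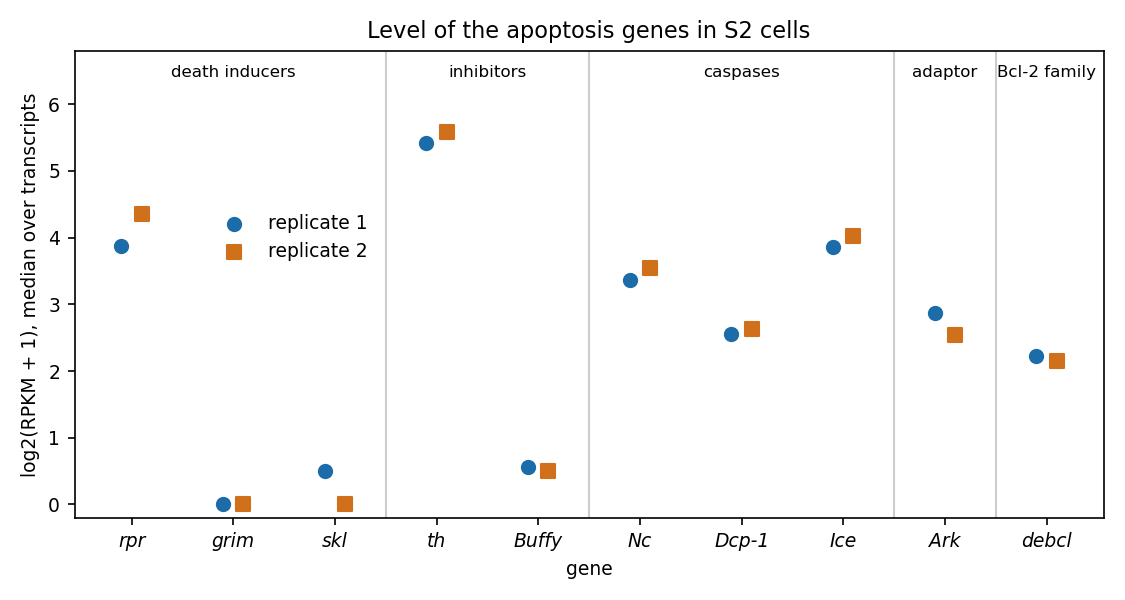
Level of each apoptosis gene as log2(RPKM + 1), the median over its transcripts, grouped by role, with 1 point for each S2 RNA replicate (blue circles, replicate 1; orange squares, replicate 2). th lies on top at 41.8 and 46.9 RPKM, while grim is listed at 0 in both replicates and the 3 caspases sit between 4.87 and 15.2 RPKM.

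Among the death inducers, rpr stood far above the others. rpr (NM_079414) encodes a small protein that antagonizes Diap1 and also promotes its degradation. Its level was 13.6 RPKM in replicate 1 against 19.5 RPKM in replicate 2, with a mean of 16.6 ± 4.19 (SD, n = 2), and it ranked at percentile 90.4 of all genes. At least 454 and 167 reads lay on its transcript, which the values give a length of at least 901 bases, and the exact Poisson intervals (95%) were 12.4 to 14.9 RPKM and 16.7 to 22.7 RPKM. These intervals, like the floors below, cover counting error only, because PCR copies of 1 molecule cannot be told apart in these reads. The intervals of the replicates did not overlap, so for rpr the spread between the libraries was wider than counting error.

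grim (NM_079413), whose product also binds Diap1, was listed at 0 RPKM in both libraries, as were 11.2% of all genes. On a transcript of 1 kb, 3 reads would give 0.0810 RPKM in replicate 1 and 0.316 RPKM in replicate 2, which was taken as a floor for a count of 0. The level of rpr was 168.0-fold that floor in replicate 1 and 61.8-fold in replicate 2. These ratios leave out the counting error of rpr and of a count of 0, so they are not lower bounds. The length of the grim transcript cannot be recovered from values of 0, so the floor holds for 1 kb only.

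skl (sickle, NM_079415), the third inducer, stood at 0.410 RPKM in replicate 1 and at 0 in replicate 2, a state shared with 15.3% of all genes. The value of replicate 1 rested on at least 21 reads, with a Poisson interval of 0.254 to 0.627 RPKM. At the depth of replicate 2 the same level would give 5.38 reads, and 3 reads on its 1382 bases would give 0.229 RPKM. The level of rpr was 33.2-fold that of skl in replicate 1. In replicate 2 it was 85.4-fold the level of skl set to this floor of 3 reads. That ratio is not a lower bound, since the Poisson interval of skl there reached 0.281 RPKM and that of rpr began at 16.7 RPKM. skl was therefore detected in the deeper library, and its reads did not pass the test between libraries (adjusted p = 0.0804, exact binomial test, Benjamini-Hochberg over 9841 genes with at least 10 reads).

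The gene W (hid), the remaining inducer of this kind in flies, is not among the 10 but sits in the same stretch of the genome. It had 0.0543 and 0.0131 RPKM, with at least 7 and 1 reads on the transcript with the most reads. In the gene order of the RefSeq annotation (Release 6, used for names and order only), 9 genes with values run from W to skl, with grim and rpr among them. Apart from rpr, all 8 were under 1 RPKM in both libraries. The 5 genes that are not inducers, CG7320, CheA75a, CG5103, CR43306 and CG13700, reached no more than 0.109 RPKM. A further 8 annotated genes of this stretch were not analysed here. The comparison with the neighbours was chosen after the values were seen.

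**Figure D2:**
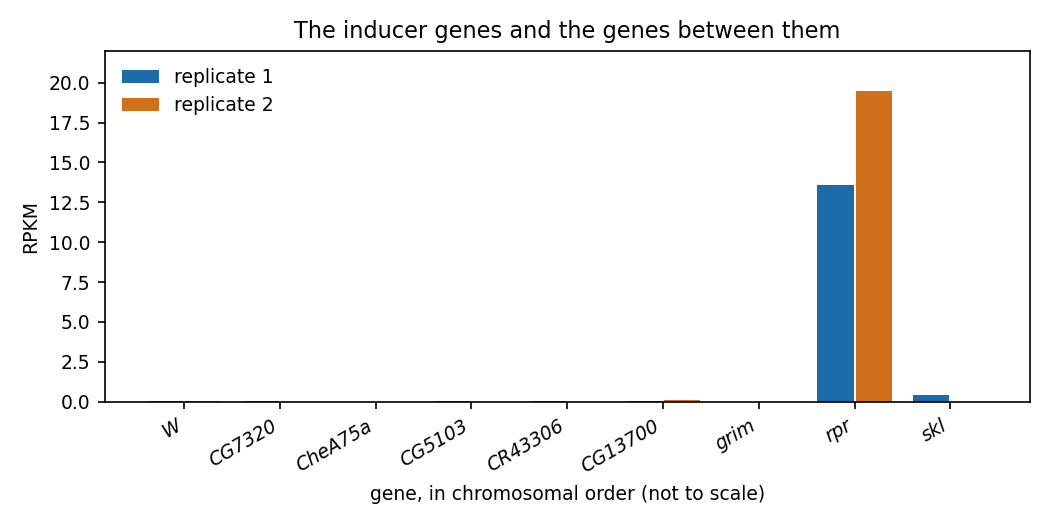
RPKM of the 9 genes from W (hid) to skl in chromosomal order, spaced evenly and not to scale, with 1 bar for each S2 RNA replicate (blue, replicate 1; orange, replicate 2). Only rpr rises clearly from the axis, at 13.6 and 19.5 RPKM, and the next highest value is that of skl, 0.410 RPKM in replicate 1.

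The inhibitors th and Buffy lay far apart, th highest of the 10 genes and Buffy under 1 RPKM. th (Diap1) was at 41.8 RPKM in replicate 1 against 46.9 RPKM in replicate 2, with a mean of 44.4 ± 3.60 (SD, n = 2), and ranked at percentile 96.8 of all genes. Both values were above every value of the other 9 genes. The level of th was 3.08-fold that of rpr in replicate 1 and 2.40-fold in replicate 2, a mean of 2.74 ± 0.476 (SD, n = 2). Against the summed level of rpr, grim and skl the ratio was 2.99 and 2.40, so adding grim and skl hardly changed it.

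The table lists 6 transcripts of th, which gives the only view of isoforms with some width. NM_079377 was highest, at 49.6 and 55.5 RPKM, and NM_001274989 was lowest, at 33.7 and 37.8 RPKM. NM_001274988, NM_001274987, NM_168645 and NM_168644 lay between, from 40.1 to 44.1 RPKM in replicate 1 and from 44.9 to 49.3 RPKM in replicate 2. The order of the 6 was the same in both libraries, and the highest was 1.47-fold the lowest in each. The ratio of replicate 2 to replicate 1 was 1.12 for all 6. How shared reads were assigned is not stated, so the 6 values are not independent and were not tested against each other.

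**Figure D3:**
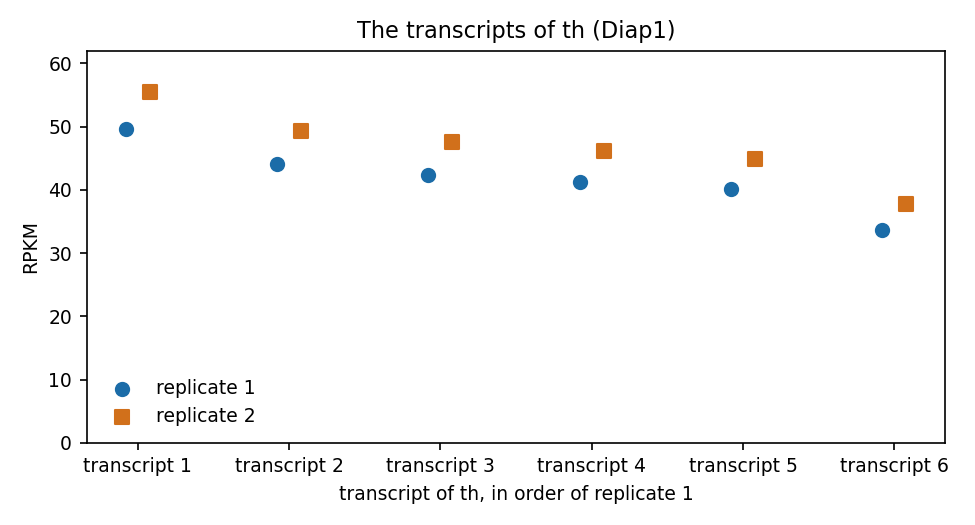
RPKM of the 6 transcripts of th (Diap1), ordered by replicate 1, with 1 point for each S2 RNA replicate (blue circles, replicate 1; orange squares, replicate 2). The points step down together from 49.6 to 33.7 RPKM in replicate 1 and from 55.5 to 37.8 RPKM in replicate 2.

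Buffy (NM_078978) is 1 of the Bcl-2 family genes of the fly and is known to counter cell death. It had 0.472 and 0.418 RPKM, or 0.445 ± 0.0377 (SD, n = 2), resting on at least 22 and 5 reads. The Poisson intervals were 0.296 to 0.714 RPKM and 0.136 to 0.976 RPKM, so the close match of the replicates is tighter than the depth of replicate 2 can show. The ratio of th to Buffy was 88.7 and 112.2 in replicates 1 and 2. The other Bcl-2 family gene, debcl (NM_176098), promotes death and was higher, at 3.69 and 3.42 RPKM, or 3.56 ± 0.193 (SD, n = 2). debcl was 7.83-fold above Buffy in replicate 1 and 8.18-fold in replicate 2, and their Poisson intervals did not overlap in either library.

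All 3 caspases were expressed, with the effector Ice highest, the initiator Nc next and the effector Dcp-1 lowest in both libraries. Ice (Drice, NM_079827) carries out most of the cleavage of cell proteins during fly apoptosis. It was at 13.5 RPKM in replicate 1 against 15.2 RPKM in replicate 2, or 14.3 ± 1.22 (SD, n = 2). Dcp-1 (NM_057626), the second effector with an overlapping role, had 4.87 and 5.16 RPKM, or 5.01 ± 0.202 (SD, n = 2). The ratio of Ice to Dcp-1 was 2.77 and 2.95, a mean of 2.86 ± 0.128 (SD, n = 2), and the ranges of these effectors did not overlap.

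Nc (Dronc, NM_079293), the initiator, had 9.27 and 10.7 RPKM, or 9.99 ± 1.02 (SD, n = 2). Ice stood 1.45-fold and 1.42-fold above Nc in replicates 1 and 2. The inhibitor th exceeded each caspase in both libraries. Its level was 3.11-fold and 3.09-fold that of Ice, 4.51-fold and 4.38-fold that of Nc, and 8.59-fold and 9.10-fold that of Dcp-1. Against the summed level of the 3 caspases the ratio of th was 1.52 in replicate 1 and 1.51 in replicate 2.

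Ark (Dark), the scaffold that recruits Dronc, was at 6.28 RPKM in replicate 1 against 4.80 RPKM in replicate 2, or 5.54 ± 1.05 (SD, n = 2). Its transcripts NM_166208 and NM_166207 were nearly level with each other, at 6.38 and 6.18 RPKM in replicate 1 and at 4.86 and 4.73 RPKM in replicate 2. The ratio of Nc to Ark was 1.48 and 2.23, a mean of 1.85 ± 0.535 (SD, n = 2). Initiator RNA was thus above scaffold RNA in both libraries, by a factor that differed between them.

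Ordered by mean level, the genes ran th, rpr, Ice, Nc, Ark, Dcp-1, debcl, Buffy, skl and grim. Of the 9 pairs of neighbours in this order, 6 had ranges over the replicates that did not overlap. A range of 2 values understates the error, and for 2 of these 6, Dcp-1 with debcl and Buffy with skl, the Poisson intervals overlapped in both libraries. These intervals use the least reads that fit, so with more reads for debcl its overlap with Dcp-1 could be smaller or absent. The 3 pairs whose ranges did overlap were rpr and Ice, Ark and Dcp-1, and skl and grim. rpr was above Ice in both libraries, by 1.01-fold and 1.28-fold, but the Poisson intervals of rpr and Ice overlapped in both. Ark and Dcp-1 changed places, with Ark at 1.29-fold and 0.930-fold the level of Dcp-1.

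As groups, the caspases spanned a narrower range than the inducers and the inhibitors. The role level, the median over its genes on the scale of log2(RPKM + 1), was 9.27 and 10.7 RPKM for the caspases, 6.94 and 7.24 RPKM for the inhibitors, and 0.410 and 0 RPKM for the inducers. On that scale the inhibitors exceeded the inducers by 2.77 ± 0.39 and the caspases exceeded them by 3.21 ± 0.48 (SD, n = 2). The inhibitors minus the caspases came to -0.44 ± 0.10 (SD, n = 2). These levels hide the spread within a role, since the inducers ran from 0 to 16.6 RPKM and the inhibitors from 0.445 to 44.4 RPKM. When genes with a mean under 1 RPKM were left out, th and rpr alone stood for their roles, and the caspases minus the inducers turned to -0.66 and the inhibitors minus the caspases to 2.05. The latter also turned, to 0.43, with the other caspase genes of the fly added, and a pseudocount of 0.1 moved the 3 differences, in the order given, to 4.44, 5.48 and -1.03.

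The replicates differed for some of the genes by more than counting error. Replicate 2 held 20.4% of all reads, and the share of each of 9841 genes with 10 or more reads was set against it in an exact binomial test (two-sided), which describes these libraries rather than a condition. Adjusted by Benjamini-Hochberg, p was under 0.05 for 13.7% of these genes and for 3 of the 9 apoptosis genes tested (grim had no reads). The direction was mixed, with 2 of the 9 called higher in replicate 2, against 8.58% of the 9841 genes, and 1 of the 9 called higher in replicate 1, against 5.17%.

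The reads of rpr, scaled to library size, were 1.44-fold higher in replicate 2 (Clopper-Pearson 95% interval 1.19 to 1.72, adjusted p = 0.00147 in the exact binomial test). Those of th were 1.12-fold higher in replicate 2 (1.04 to 1.20, adjusted p = 0.0143), and those of Ark were 0.766 of the level in replicate 1 (0.659 to 0.887, adjusted p = 0.00362, exact binomial test). When the transcript with the fewest reads stood for each gene, only rpr kept its call, because the recovered reads of th and Ark are then fewer. rpr has 1 transcript entry, so this choice could not change its reads. For Ark the least reads were 87 and 17 in replicates 1 and 2, against 1100 and 216, at nearly the same RPKM. The choice thus does not show that the difference of rpr is firmer than those of th and Ark. The adjusted p-values of th and Ark then became 0.235 and 0.695 in the exact binomial test, while their log2 differences stayed at 0.16 and -0.39, against 0.16 and -0.38 before. The other genes tested did not pass. For Nc, Ice and Dcp-1 the ratio of replicate 2 to replicate 1 was 1.16, 1.13 and 1.06, with intervals of 0.984 to 1.35, 0.984 to 1.29 and 0.824 to 1.35. The intervals of Buffy, 0.262 to 2.40, and debcl, 0.477 to 1.68, were too wide to tell a fold of the size seen for rpr from none. They rest on the least reads that fit, for debcl 59 and 14 on 431 bases, and would be narrower with more reads.

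**Figure D4:**
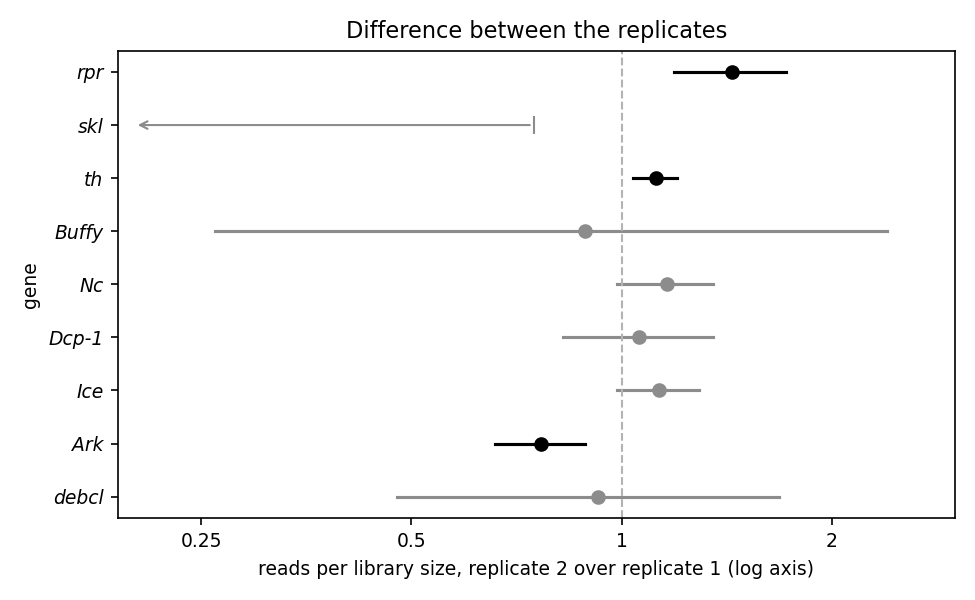
Reads per library size in replicate 2 over replicate 1 for the 9 apoptosis genes with at least 10 reads, on a log axis, with Clopper-Pearson 95% intervals; black marks the genes with an adjusted p under 0.05 in the exact binomial test, and skl, with 0 reads in replicate 2, has an arrow from its upper bound of 0.749. rpr lies to the right at 1.44 and Ark to the left at 0.766, on either side of the dashed line of equal levels.

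Other genes of the death pathway place these values. All 29 genes on that list had values, of which 22 (75.9%) reached 1 RPKM and 16 (55.2%) reached 5 RPKM, against 49.5% and 29.5% of all genes, with a list median of 5.33 RPKM. In the test between libraries 4 of the 24 tested were called higher in replicate 2, against 8.58% of all genes tested, and 2 were called higher in replicate 1, against 5.17%.

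All 3 further members of the IAP family, to which Diap1 belongs, were expressed. Iap2 (Diap2), which acts mainly in immune signalling, had 20.6 and 22.7 RPKM, the highest of these, and Det (deterin) had 12.9 and 10.0 RPKM, the lowest. th was above each of them in both libraries. Of the genes that act on Diap1 stability, eff, a ubiquitin-conjugating enzyme, had 61.3 and 75.9 RPKM, and Ubr3 (listed as CG42593) was lowest of the 3 at 4.58 and 4.12 RPKM. Of the additional antagonists, the peroxiredoxin Jafrac2 was highest, at 12.9 and 9.73 RPKM.

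With the 4 further caspase genes, 5 of the 7 caspases of the fly reached 1 RPKM. dream (Strica), a caspase with a long prodomain, had 5.46 and 5.88 RPKM, which placed it just above Dcp-1 in both libraries. dream rested on at least 254 and 69 reads and Dcp-1 on at least 317 and 86, and their order was not tested. Dredd, the caspase of the Imd immune pathway, had 4.82 and 4.61 RPKM. The caspase genes decay and Damm were at the limit of detection. decay was listed at 0 and 0.0948 RPKM in replicates 1 and 2, and Damm at 0.0840 and 0 RPKM.

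The cytochrome c genes differed widely. Cyt-c-p, the form used in the respiratory chain of most cells, had 126.1 and 129.3 RPKM, and Cyt-c-d, required for caspase activation in developing sperm, had 0.586 and 0.194 RPKM. In the list of nucleases and their inhibitors, which also held the mitochondrial flavoprotein AIF, 3 of 6 genes reached 1 RPKM. AIF was highest by mean at 5.07 and 5.72 RPKM, close to Drep-4, the caspase-activated nuclease, at 4.92 and 5.74 RPKM. DNaseII, the acid nuclease, was lowest at 0.0659 and 0 RPKM.

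**Figure D5:**
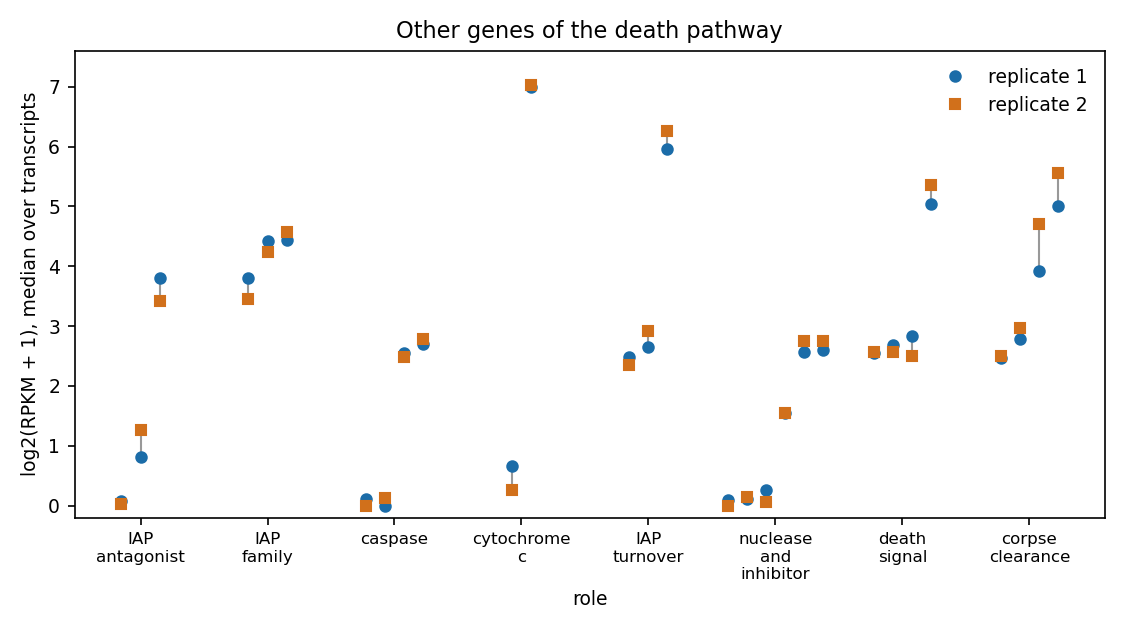
Levels of 29 other genes of the death pathway as log2(RPKM + 1), by role, each gene drawn as a line between its S2 RNA replicates (blue circles, replicate 1; orange squares, replicate 2). Cyt-c-p is highest at 126.1 and 129.3 RPKM, and a cluster of genes that includes W, decay, Damm and DNaseII lies near 0.

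Counting without a stated strand limits 5 of the 10 genes, which overlap other genes in the Release 6 annotation. Dcp-1 overlaps pita, a zinc finger gene at 6.42 and 5.83 RPKM, and Buffy overlaps CG13196 at 0.305 and 0.155 RPKM. th overlaps a non-coding gene, CR43951, at 4.29 and 3.81 RPKM. For these 3 genes, reads from the overlap cannot be assigned to 1 partner. th, grim and Ark also overlap antisense or long non-coding genes that were not analysed here. rpr, skl, Nc, Ice and debcl overlap no annotated gene.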

How the data were processed

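Total RNA of S2 cells was depleted of ribosomal RNA and sequenced from one end. The study's methods name TopHat as aligner and release 5 of the fly genome. The authors deposited RPKM per RefSeq transcript for each replicate. The program that computed it, the assignment of shared reads and the strand setting are not given in the sources used here. The study's own pipeline named Cufflinks, whose values are FPKM.

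Symbols were matched with case kept. All 16 entries of the 10 genes matched the RefSeq table of Release 6 by identifier, which gave names, gene order and which genes overlap. No coordinates are printed. Sequences were not used here. Whole reads were recovered where the ratio of both columns reduced to whole numbers (98.8% of 23661 entries above 0 in both libraries). The library size was the largest for which most lengths were whole (75.9% of 16994 entries, against 38.0% at double the size). The recovery and the binomial test were tested on simulated data. Those reads varied by counting error alone, on lengths taken from the recovered values. PCR copies and lengths longer than those recovered were thus not covered. Fold differences between roles used a pseudocount of 1. No test across samples was run, since an exact test on 2 libraries cannot reach p under 0.05.

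The members and lists were chosen with earlier results of these data known. Genes named were the 10 members, W, and the highest and lowest gene of each further role; Drep-4, Dredd, dream, decay and Damm, the neighbours of rpr and the overlapping genes were added after values were seen. Alternatives were a pseudocount of 0.1, the highest or lowest transcript, scaling to the same median, a minimum of 1 RPKM, other role lists, other read choices, and leaving out each replicate. Software was Python 3.11.15, NumPy 2.4.6, pandas 2.3.3, SciPy 1.17.1 and matplotlib 3.10.9.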

Additional observations from a re-analysis of the deposited data

How the results depend on the processing

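No paired analysis was possible because values of 1 group, the S2 RNA, were used. The level of the inducers, 0.205 RPKM, became 16.6 RPKM when genes under a mean of 1 RPKM were dropped, which leaves rpr. The level of the inhibitors, 7.09 RPKM, became 44.4 RPKM with that minimum or with th alone, 4.82 with a pseudocount of 0.1, 7.79 with the highest transcript and 6.28 with the lowest. The level of the caspases, 9.99 RPKM, became 5.01 with the other caspase genes added. The log2 difference of inhibitors and inducers, 2.77, was 4.44 with a pseudocount of 0.1, 1.39 with the minimum of 1 RPKM and 5.25 with th alone. That of caspases and inducers, 3.21, was 5.48, and 2.34 with the other caspases added, and it reversed to -0.66 with the minimum, since only rpr was left. That of inhibitors and caspases, -0.44, was -1.03 with a pseudocount of 0.1, -0.32 and -0.59 with the highest and lowest transcript, and it reversed to 2.05 with the minimum or with th alone and to 0.43 with the other caspases added, because the lists then hold other genes. With the transcript of fewest reads, 1 apoptosis gene differed between replicates (10.5% of 9528 genes tested) in place of 3 (13.7% of 9841), since fewer reads are recovered for that transcript. The gene that kept its call, rpr, has 1 transcript entry, so its reads could not change. Bringing both replicates to 1 median (0.02 on the log2 scale) moved none of these levels and differences beyond its SD. The count of genes at 5 RPKM or more, 6 by the mean, became 5 with this scaling or without either replicate. It became 4 when both replicates had to reach 5 RPKM. The count at 1 RPKM or more stayed at 7 in each of these settings. The test between libraries cannot leave out a replicate.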

Other observations

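Genes that act before and after the caspases were also expressed. All 4 genes listed as death signals reached 1 RPKM. egr (eiger), the fly ligand of the tumour necrosis factor family, was highest at 31.9 and 40.1 RPKM, and p53 was lowest by mean at 4.88 and 4.94 RPKM. The egr reads were 1.26-fold higher in replicate 2 (adjusted p = 6.07e-07, exact binomial test, adjusted over 9841 genes). The receptor gene wgn had 6.15 and 4.65 RPKM, and BG4 (Fadd) had 5.45 and 4.89 RPKM, both below p53 in replicate 2.

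The genes for clearance of dead cells were all above 4 RPKM. ced-6, an adaptor of the engulfment receptor Draper, was highest at 31.1 and 45.9 RPKM, and drpr, which encodes that receptor, was lowest at 4.54 and 4.67 RPKM. The reads of ced-6 were 1.47-fold higher in replicate 2 (adjusted p = 4.14e-23, exact binomial test) and those of pall, a ubiquitin ligase subunit used in phagocytosis, 1.76-fold higher (adjusted p = 1.17e-12, exact binomial test). Each of these differences is between 2 libraries of 1 group. wgn, BG4 and pall were named after their values were seen.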
